A study of Mus musculus with 12 samples.

Results

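Intracranial B16-OVA melanoma tumors of NK cell-depleted (ΔNK) mice given PC blockade (anti-PD-1 with anti-CTLA-4) were compared with those of IgG control mice, 3 tumors against 3 of the 12 that were sequenced. The 6 tumors were chosen by their labels, and all 17320 of 54532 genes that passed a filter on low counts were tested. All mice were wild type C57BL/6J animals, 6 to 10 weeks old by the study's methods, that carried a flank tumor and, from 3 days later, a tumor in the brain, whose cells the design text names B16-OVA/Fluc, a line that also carries firefly luciferase. IgG mice received control antibody, and ΔNK mice received both blocking antibodies and a serum against asialo-GM throughout, named anti-Asialo-GM2 in the labels and anti-Asialo-GM-1 in the methods. The doses of PC or IgG were given on days 5 and 7 after intracranial implantation by the design text (1 day earlier by the methods), and tumors were taken on day 8. Each tumor came from 1 mouse, and polyadenylated RNA of dissociated tissue was sequenced without sorting. The 2 groups differ by the blockade and by the depletion at once, and in this comparison these cannot be told apart. The other 6 tumors, used for contrast, came from PC-treated mice whose tumors the study sorted into CD8L (few) and CD8H (many) by their CD8+ T cells.

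NK cells kill cells that lack MHC class I and release IFNγ and the chemokines XCL1 and CCL5, which draw dendritic cells into tumors. Dendritic cells carry antigen to T cells and present it on MHC class I and class II, and IFNγ raises both through IRF1 and the transactivators NLRC5 and CIITA. Asialo-GM1 is a glycolipid of NK cells that is also found on some other leukocytes, among them basophils and some T cells.

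Levels are CPM (counts scaled to library size) after TMM scaling, and differences are log2 ΔNK minus IgG from edgeR's quasi-likelihood test over all 12 tumors, each with its standard error (SE). A gene was called where both its p and its adjusted p (Benjamini-Hochberg, over all genes tested) were at most 0.05. By edgeR 3 genes were called (0.0173% of those tested), all lower in ΔNK tumors, and none was higher, while 934 genes were higher (5.39%) and 1656 lower (9.56%) at an unadjusted p of at most 0.05. DESeq2, run on the same genes, called 922 (5.32%), with 205 higher (1.18%) and 717 lower (4.14%). ΔNK tumors did not overlap IgG tumors in 5417 genes (31.3%), 2984 of them higher (17.2%) and 2433 lower (14%). No gene was called by edgeR when any 1 of the 6 compared tumors, CD8L tumor 1 or any CD8H tumor was left out. Since edgeR called so few, all other genes below are given as values, many of them with the DESeq2 adjusted p. In 2 of the 6 tumors, gene groups stood apart from their group: ΔNK tumor 2 in interferon and leukocyte genes and IgG tumor 1 in fibroblast genes. Mean log2 CPM of the fibroblast genes was 4.03, 3.38 and 3.01 in IgG and 2.24, 2.11 and 2.80 in ΔNK tumors, without overlap. Their median log2 difference was -1.05, with 9 genes below 0 and 1 above, and 3 lower at that p. It stayed below 0 in 24 alternative fits, at -1.48 to -0.55, those without IgG tumor 1 included. Tumors 2 and 3 of the IgG group also held more neuronal RNA (mean log2 CPM of 22 neuron genes 6.07 and 5.61) than IgG tumor 1 (3.02) or the ΔNK tumors (2.81, 2.68 and 4.26), so several list medians are also given with this level as a covariate.

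The called genes were Scin, Klra7 and Klra8. Scin (ENSMUSG00000002565, chromosome 12 of GRCm38 from 40059769 to 40134228), which encodes the actin-severing protein scinderin, was counted 36, 29 and 29 times in the IgG tumors and 1, 1 and 2 times in the ΔNK tumors. All 3 ΔNK tumors lay far below the IgG tumors at similar depth. Scin fell by 4.41 on the log2 scale (SE 0.51, edgeR adjusted p = 0.0407). Its levels in CD8L tumors, 0.505, 0.223 and 0.558 CPM, lay between those of the IgG tumors (1.82, 1.64 and 1.35 CPM) and the ΔNK tumors (0.0455, 0.0607 and 0.104 CPM). Klra7 (ENSMUSG00000067599) and Klra8 (ENSMUSG00000089727), Ly49 receptors of NK cells on chromosome 6, were counted 103 and 75 times over the IgG tumors and 1 time each over the ΔNK tumors. The ratio of IgG to ΔNK tumors at equal depth was 101 for Klra7 (exact 95% interval 17.7 to 4022, counting error only) and 73.4 for Klra8 (12.8 to 2939). Klra genes resemble each other in sequence, so counts of single members are uncertain. Of the 22 NK receptor genes listed, 19 were tested, and the median log2 difference was -4.56 against 0.01 over all genes tested.

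Genes that mark all leukocytes were lower in the ΔNK tumors. Of 16 pan-leukocyte genes, 14 were lower at an unadjusted p of at most 0.05, 15 did not overlap between the groups, and 11 were called lower by DESeq2. Their median log2 difference was -1.22. Ptprc, which encodes CD45, stood at 87.0, 54.6 and 53.7 CPM in the IgG tumors and at 23, 6.55 and 21.3 CPM in the ΔNK tumors. Every ΔNK tumor was below every IgG tumor, and tumor 2 was the lowest. The log2 difference of Ptprc was -1.94 (SE 0.43, edgeR adjusted p = 0.139, DESeq2 adjusted p = 0.00287). In bulk tissue, fewer cells of a type and less RNA per cell cannot be told apart.

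The lower genes with the smallest p among those at a mean log2 CPM of 2 or more and without overlap included many that leukocytes express. Klhl6, a lymphocyte gene, was at 8.21, 7.65 and 6.86 CPM in IgG and at 2.91, 2.61 and 2.30 CPM in ΔNK tumors, and Ncf1, a subunit of the phagocyte NADPH oxidase, was at 27.8, 22.1 and 23.1 against 9.33, 5.52 and 11.4 CPM. The endosomal receptors Tlr7 and Tlr9, which sense RNA and DNA, had log2 differences of -1.34 (SE 0.22) and -2.08 (SE 0.38). Tlr7 was tightly grouped, at 11.3, 12 and 11.8 CPM in IgG and at 4.87, 3.70 and 5.22 CPM in ΔNK tumors. Mpeg1, the pore-forming perforin-2 of macrophages, was at 245, 201 and 197 against 80.5, 36.0 and 86.3 CPM. Laptm5, a lysosomal protein of leukocytes, and Inpp5d, the phosphatase SHIP1, had differences of -1.35 (SE 0.24) and -1.10 (SE 0.21). Arhgef6, Otulinl, Tmem255a, Wdfy4, Arhgap25, Rassf5, Fgd2 and Vsir completed the 15, and all of them had edgeR adjusted p-values between 0.111 and 0.117.

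**Figure D1:**
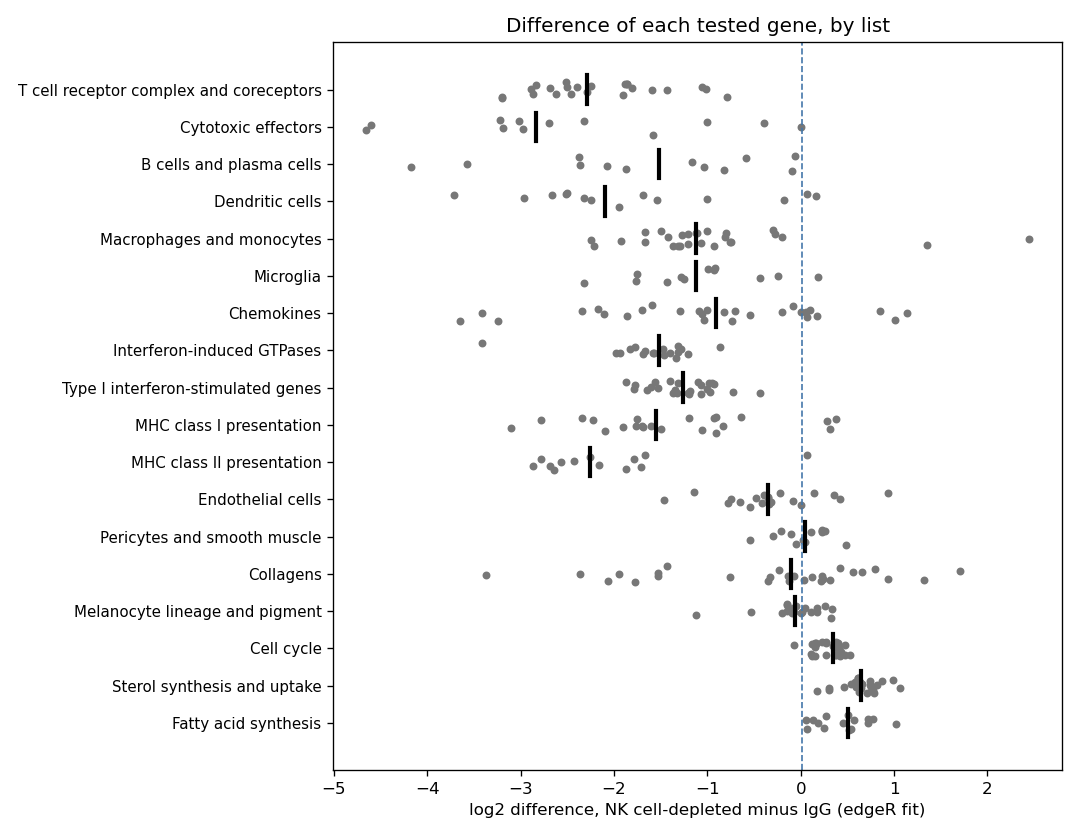
Each point is the log2 difference (ΔNK minus IgG, edgeR fit) of 1 tested gene, in 18 gene lists, the black bar is the median of the list and the dashed line the median of all genes tested (0.01). Medians of the leukocyte and MHC lists lie left of the line, from -0.91 for chemokines to -2.84 for cytotoxic effectors, and those of the sterol and fatty acid lists lie right of it, at 0.64 and 0.51.

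Genes of the T cell receptor complex and its coreceptors were lower in ΔNK tumors as well. Of 23 genes, 20 were lower at an unadjusted p of at most 0.05, 21 did not overlap, 13 were called lower by DESeq2, and the median log2 difference was -2.29. Without ΔNK tumor 2 the median was -1.85 with 14 genes at that p. Cd8a, the alpha chain of the CD8 coreceptor, was at 8.56, 4.08 and 3.55 CPM in IgG and at 1.14, 0.182 and 0.365 CPM in ΔNK tumors. Its log2 difference was -3.20 (SE 0.75, edgeR adjusted p = 0.147, DESeq2 adjusted p = 0.00287). Cd4, which helper T cells and some myeloid cells carry, was at 4.61, 8.95 and 7.98 against 1.41, 0.0607 and 1.83 CPM. Cd3e, a signaling chain of the receptor, was at 4.86, 1.36 and 2.52 against 0.638, 0.243 and 0.261 CPM. For all 3 genes the highest ΔNK tumor lay below the lowest IgG tumor. Cd27, a costimulatory receptor, differed by -2.84 (SE 0.56). Tcf7, a transcription factor of naive and memory-like T cells, differed by -0.79 (SE 0.22). It was at 20.9 to 27.5 CPM in IgG tumors, above Cd3e in each, and which cells its RNA came from was not tested.

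Regulatory T cell genes were separated less clearly. Of 11, 3 were lower at an unadjusted p of at most 0.05 and 5 did not overlap, with a median of -1.16. Over all genes tested, 9.56% were lower at that p and 14% were lower without overlap. Foxp3, the defining transcription factor, was at 3.04, 1.81 and 1.17 CPM in IgG and at 1.37, 0.303 and 0.783 CPM in ΔNK tumors, and the groups overlapped. B cell and plasma cell genes had a median of -1.52, with 6 of 12 lower at that p. Ighm, the heavy chain of IgM, was at 17, 23.1 and 15.8 against 3.78, 2.55 and 6.89 CPM (log2 difference -2.07, SE 0.49, DESeq2 adjusted p = 0.000733). Igkc, the kappa light chain, was counted 134 times over IgG and 11 times over ΔNK tumors.

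Cytotoxic effector genes differed among themselves. Prf1, which encodes perforin, was counted 199 times over the IgG tumors and 8 times over the ΔNK tumors. The ratio at equal depth was 24.4 (exact 95% interval 12.1 to 57.2, counting error only), and the log2 difference was -4.60 (SE 0.85). Gzma, granzyme A, was at 9.42, 3.85 and 4.57 CPM in IgG and at 0.501, 0 and 0.157 CPM in ΔNK tumors. Gzmb, granzyme B, was at 9.22, 4.25 and 4.25 against 3.32, 0.485 and 1.98 CPM. The log2 difference was -4.65 (SE 0.82, DESeq2 adjusted p = 2.09e-08) for Gzma and -1.58 (SE 0.74, DESeq2 adjusted p = 0.212) for Gzmb. Ctsw, a protease of cytotoxic lymphocytes, stood at 8.51, 4.08 and 3.08 against 0.729, 0.546 and 0.418 CPM. Of the 12 effector genes tested, 7 were lower at an unadjusted p of at most 0.05, 9 did not overlap, and the median was -2.84. Granzyme genes resemble each other, so their single counts are uncertain.

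Checkpoint receptors and ligands had a median of -1.44, and 12 of 17 were lower at an unadjusted p of at most 0.05. Lag3, a receptor of activated T and NK cells, was at 11.6, 11.8 and 11.6 CPM in IgG and at 2.28, 1.64 and 2.61 CPM in ΔNK tumors. Vsir, which encodes VISTA on myeloid cells, was at 25.6, 24.0 and 25.1 against 11.2, 6.01 and 10.7 CPM, and Cd80, a ligand of CD28 and CTLA-4, at 4.41, 3.40 and 4.01 against 1.37, 1.27 and 1.41 CPM. These 3 genes varied little within the IgG group and did not overlap. Pdcd1, the gene of PD-1 itself, differed by -2.64 (SE 0.84) and Havcr2, the gene of TIM-3, by -1.16 (SE 0.25). Cd274, the gene of PD-L1, was at 92.9, 54.4 and 58.6 against 40.0, 8.98 and 46.2 CPM, with tumor 2 far below the other ΔNK tumors (edgeR adjusted p = 0.319, DESeq2 adjusted p = 0.19). The only member above 0 was Nectin2, a ligand of TIGIT, at 0.37.

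**Figure D2:**
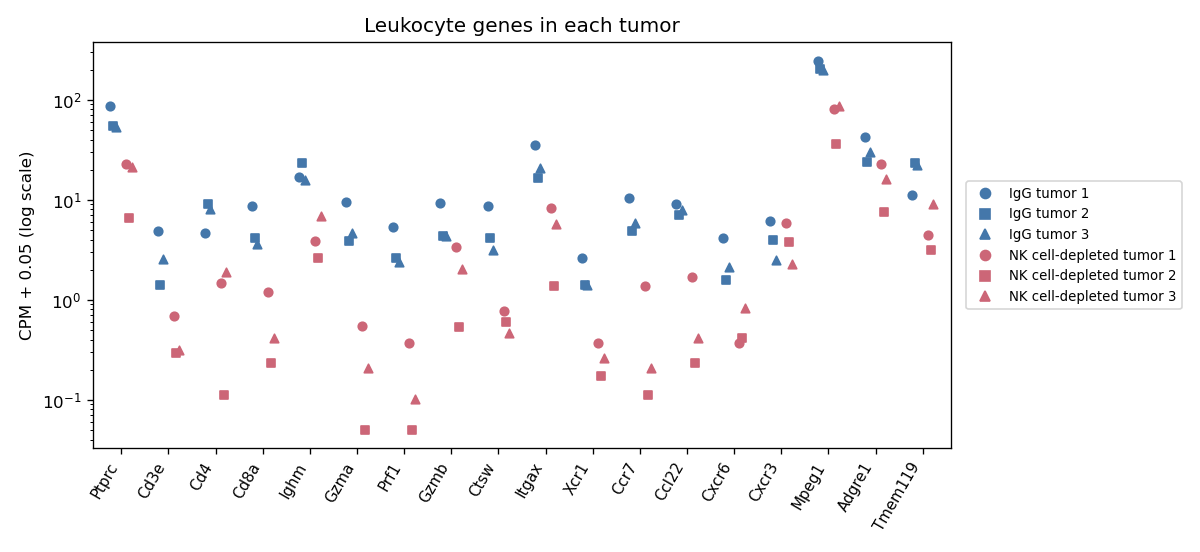
CPM plus 0.05 on a log scale of 18 leukocyte genes in the 3 IgG (blue) and 3 ΔNK tumors (red), the marker shape giving the tumor number. ΔNK tumors lie below IgG tumors in all genes drawn except Cxcr3, where the groups cover the same range (2.47 to 6.13 and 2.24 to 5.83 CPM).

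Among antigen-presenting cells, dendritic cell genes had the lowest median (-2.09), with 10 of 14 called lower by DESeq2. Not all members were lower: Batf3, Fscn1 and Zbtb46 were near 0, at 0.16, 0.07 and -0.18. Xcr1 and Clec9a, markers of the cross-presenting type 1 dendritic cell, were counted 104 and 97 times over IgG and 13 and 16 times over ΔNK tumors. Ccr7, the receptor with which mature dendritic cells and naive T cells travel to lymph nodes, was at 10.3, 4.81 and 5.83 CPM in IgG and at 1.32, 0.0607 and 0.157 CPM in ΔNK tumors (log2 difference -3.71, SE 0.88, DESeq2 adjusted p = 0.000215). Itgax, the gene of CD11c, was at 35.5, 16.4 and 20.8 against 8.29, 1.33 and 5.64 CPM. Flt3, the receptor for the growth factor of dendritic cells, differed by -2.66 (SE 0.58). Flt3l, its ligand, overlapped between the groups.

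Macrophage genes were lower by less. Their median was -1.12, with 19 of 27 lower at an unadjusted p of at most 0.05 and 11 called lower by DESeq2. Adgre1, the gene of F4/80, was at 42.8, 23.9 and 30.3 against 22.6, 7.46 and 16.2 CPM, and Csf1r, the receptor for the macrophage growth factor, at 103, 118 and 121 against 56.7, 32.2 and 58.6 CPM. Both had separate groups. The exceptions were Arg1 and Mrc1, used as markers of alternatively activated macrophages, with log2 differences of 2.44 (SE 1.33) and 1.35. Arg1 was low and uneven, at 1.77, 0 and 0.280 CPM in IgG and at 7.01, 0.121 and 4.12 CPM in ΔNK tumors, and the groups overlapped. Mrc1 was higher in each ΔNK tumor than in any IgG tumor. Neither gene was at an unadjusted p of at most 0.05, and DESeq2 called neither.

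Microglia genes had the same median (-1.12), and this was -0.62 with the neuron level as a covariate. Tmem119, a microglial surface protein, was at 11, 23 and 22 against 4.37, 3.09 and 9.03 CPM, and Cx3cr1, the fractalkine receptor, at 45.8, 60.9 and 60.05 against 22.4, 19.2 and 28.7 CPM. IgG tumor 1, the one with little neuronal RNA, had the lowest level of both in its group. P2ry13, a purine receptor, differed by -1.75 (SE 0.37, DESeq2 adjusted p = 0.000313). Complement genes had a median of -0.96, and C1qa, which macrophages and microglia make, was at 180, 118 and 136 against 78.5, 29.4 and 60.6 CPM. Only 3 of 12 neutrophil genes passed the filter, and of these Csf3r, the G-CSF receptor, was at 10.6, 10.6 and 11.1 against 4.05, 2.31 and 4.70 CPM.

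Chemokines were mixed, with a median of -0.91. At an unadjusted p of at most 0.05, 5 of 28 were lower, where 9.56% of all genes were. Without ΔNK tumor 2 the median was -0.51, with 4 lower and 2 higher at that p. Xcl1, the ligand of XCR1, was counted 117 times over IgG and 9 times over ΔNK tumors. The ratio was 12.7 (exact 95% interval 6.48 to 28.5, counting error only), and the log2 difference was -3.65 (SE 0.76). Ccl22, a chemokine of mature dendritic cells that draws CCR4+ T cells, was at 8.97, 7.02 and 7.93 CPM in IgG and at 1.64, 0.182 and 0.365 CPM in ΔNK tumors (log2 difference -3.41, SE 0.76, DESeq2 adjusted p = 0.000106). Cxcl16, the ligand of CXCR6, differed by -1.70 (SE 0.44) and Cxcl12, the ligand of CXCR4, by -2.11 (SE 0.71). Ccl5, made by NK and T cells and by macrophages, was at 55.4, 28.2 and 36.6 against 34.9, 17.8 and 21.0 CPM and overlapped between the groups (log2 difference -0.70, SE 0.43). On the other side of 0, Ccl7, a chemoattractant of monocytes, was at 6.38, 5.44 and 6.35 against 20.8, 3.22 and 16.1 CPM, high in ΔNK tumors 1 and 3 only (log2 difference 1.14, SE 0.60, edgeR adjusted p = 0.362). Ccl19 did not pass the filter, with 2 counts over IgG and 0 over ΔNK tumors.

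The T cell chemokine receptors Cxcr3 and Cxcr6 differed from each other. Cxcr6 was at 4.10, 1.53 and 2.05 CPM in IgG and at 0.319, 0.364 and 0.783 CPM in ΔNK tumors (log2 difference -2.38, SE 0.60, DESeq2 adjusted p = 0.00353). Cxcr3, the receptor for CXCL9 and CXCL10, was at 6.13, 3.91 and 2.47 against 5.83, 3.70 and 2.24 CPM (log2 difference -0.09, SE 0.44), although Cd3e and Cd8a were lower in the same tumors. The difference between the 2 receptors was not tested. Ccr9, a homing receptor of gut T cells and plasmacytoid dendritic cells, was counted 182 times over IgG and 8 times over ΔNK tumors. The ratio was 22.3 (exact 95% interval 11.1 to 52.4, counting error only).

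Cytokines and their receptors had a median of -1.28, with 24 of 43 lower and 2 higher at an unadjusted p of at most 0.05. Lta, the gene of lymphotoxin alpha, was counted 35 times over the IgG tumors and 0 times over the ΔNK tumors, which is at least 11.4-fold lower against a floor of 3 counts over the group. Il18r1, a subunit of the IL-18 receptor, was at 5.62, 2.04 and 2.71 CPM in IgG and at 0.273, 0 and 0.313 CPM in ΔNK tumors. Il10ra, the IL-10 receptor, differed by -1.91 (SE 0.39, DESeq2 adjusted p = 4.71e-05). Of the TNF family list, 8 of 15 genes were lower at that p, and of 22 NF-kB subunits and targets 6 were. The share over all genes was 9.56%. Traf1, an adaptor of TNF receptors, was at 12.7, 7.59 and 7.32 against 3.37, 1.09 and 2.92 CPM.

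Ifng itself was near the limit of these libraries, at 1.87, 0.906 and 0.700 CPM in IgG and at 0.820, 0 and 0.470 CPM in ΔNK tumors, and the groups overlapped (log2 difference -1.38, SE 0.86, DESeq2 adjusted p = 0.251). Of 15 genes of IFNγ signaling, 4 were lower at an unadjusted p of at most 0.05 and 7 did not overlap. Over all genes, 9.56% were lower at that p and 14% were lower without overlap. The median of the 15 was -1.04 (-0.57 without ΔNK tumor 2). Irf1, a transcription factor that IFNγ induces, was at 388, 179 and 214 against 166, 24.8 and 160 CPM (DESeq2 adjusted p = 0.263). Nlrc5, which switches on MHC class I genes, was at 350, 172 and 197 against 83.5, 12.1 and 89.7 CPM (log2 difference -1.96, SE 0.57, DESeq2 adjusted p = 0.0327). In both genes ΔNK tumors 1 and 3 were close to each other and tumor 2 was several times lower.

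ΔNK tumor 2 stood apart most in the interferon-induced GTPases. The summed level of these 18 genes was 5526, 3466 and 3806 CPM in the IgG tumors, 2541 and 2238 CPM in ΔNK tumors 1 and 3 and 173 CPM in tumor 2. Gbp2 was at 592, 402 and 396 CPM in IgG tumors and at 412, 13.3 and 338 CPM in ΔNK tumors, so that its groups overlapped (DESeq2 adjusted p = 0.557). Gbp7 was at 226, 147 and 167 against 60.9, 7.52 and 72.2 CPM and did not overlap (log2 difference -1.94, SE 0.60, DESeq2 adjusted p = 0.0456). The median of the list was -1.52 with tumor 2 and -0.98 without it, and all 18 differences were below 0, but 6 of 18 were lower at an unadjusted p of at most 0.05 and 3 were called lower by DESeq2. Gbp genes resemble each other in sequence, so counts of single members are uncertain. Type I interferon-stimulated genes had a median of -1.26 (-0.83 without tumor 2), with 20 of 26 lower at an unadjusted p of at most 0.05 and 8 called lower by DESeq2. Oas2, which makes the activator of RNase L, was at 174, 64.8 and 84.9 against 35.2, 9.58 and 49.0 CPM, and Xaf1 differed by -1.37 (SE 0.39, DESeq2 adjusted p = 0.00621).

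Promoters of some of these genes carry the letters of known interferon elements. The gamma-activated site (GAS, TTCNNNGAA) is an element of genes that IFNγ induces, and the interferon-stimulated response element (ISRE, here TTTC, any 2 bases and TTTC) binds IRF proteins and ISGF3. Both were searched on both strands in windows of 300 bases around RefSeq start sites (GRCm38.p6). Over all 32851 windows, 8.30% held a GAS and 3.44% an ISRE. Of the GTPases with a window, 6 of 11 held a GAS and 10 of 11 an ISRE, of the type I interferon-stimulated genes 3 and 12 of 20, of the IFNγ signaling genes 4 and 2 of 11, of the MHC class I genes 2 and 5 of 20, and of the MHC class II genes 1 and 1 of 10. Counted by gene, 9.55% of all genes held a GAS and 3.99% an ISRE, and the GAS share of both MHC lists was 10%. A match is a description of letters, not a bound site. The 150 bases before the start site are shown, 5′ to 3′ on the gene's strand, for 5 genes that span the lists, with GAS and ISRE matches in capitals. Irf1 (chr11:53769864-53770013, plus strand) has a GAS alone, Gbp7 (chr3:142530186-142530335, plus) and Igtp (chr11:58199406-58199555, plus) have both, and Isg15 (chr4:156200819-156200968, minus) and B2m (chr2:122147537-122147686, plus) have the ISRE alone, overlapping copies in Isg15.
Irf1: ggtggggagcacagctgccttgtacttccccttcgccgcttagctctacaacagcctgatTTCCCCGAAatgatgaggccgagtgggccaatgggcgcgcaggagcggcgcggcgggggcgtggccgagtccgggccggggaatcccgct
Gbp7: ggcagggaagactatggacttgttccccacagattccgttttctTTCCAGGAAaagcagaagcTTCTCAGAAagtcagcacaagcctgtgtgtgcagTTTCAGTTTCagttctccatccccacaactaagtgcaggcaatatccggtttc
Igtp: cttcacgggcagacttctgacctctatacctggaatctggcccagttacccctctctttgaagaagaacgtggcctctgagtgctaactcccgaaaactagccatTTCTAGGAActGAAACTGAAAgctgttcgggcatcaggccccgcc
Isg15: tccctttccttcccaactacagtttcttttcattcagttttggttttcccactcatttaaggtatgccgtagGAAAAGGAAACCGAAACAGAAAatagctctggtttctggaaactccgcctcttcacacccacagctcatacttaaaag
B2m: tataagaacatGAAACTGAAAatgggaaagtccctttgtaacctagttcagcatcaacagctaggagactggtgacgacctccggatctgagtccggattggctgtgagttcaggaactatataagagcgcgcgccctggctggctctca
These 5 genes did not overlap between the groups. Igtp was at 879, 561 and 641 CPM in IgG and at 463, 22.1 and 355 CPM in ΔNK tumors, and Isg15 at 204, 93.7 and 111 against 74.5, 12.1 and 78.5 CPM. DESeq2 called neither (adjusted p = 0.313 and 0.189).

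**Figure D3:**
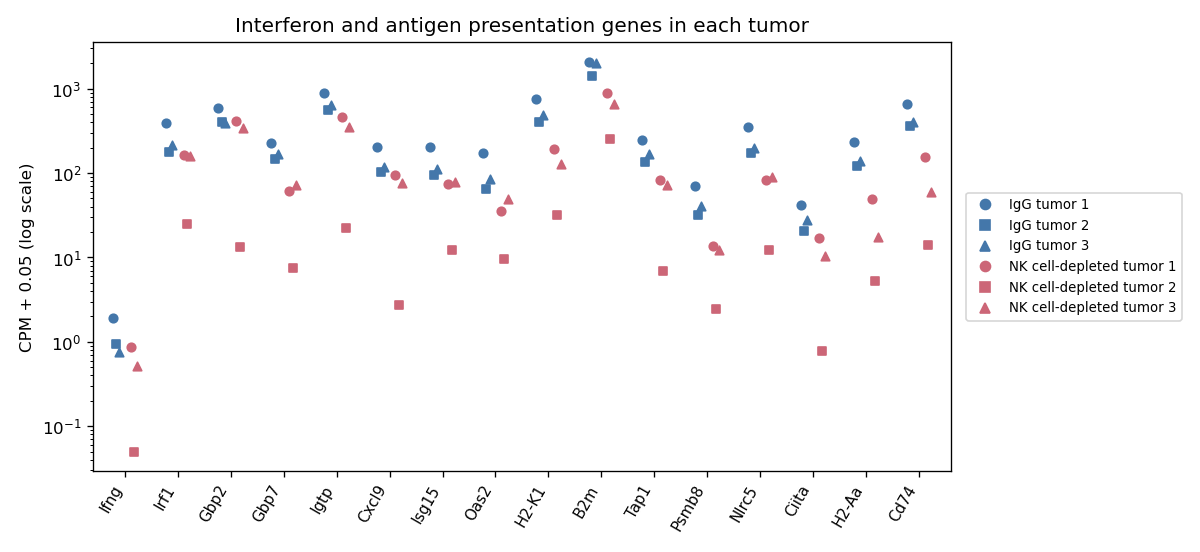
CPM plus 0.05 on a log scale of 16 interferon and antigen presentation genes in the 3 IgG (blue) and 3 ΔNK tumors (red), the marker shape giving the tumor number. The square, ΔNK tumor 2, is the lowest point of every gene (13.3 CPM in Gbp2, 24.8 CPM in Irf1).

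Antigen presentation genes followed. In MHC class I presentation, 16 of 22 genes were lower and 1 higher at an unadjusted p of at most 0.05, 9 were called lower by DESeq2, and the median was -1.55 (-1.16 without ΔNK tumor 2). H2-K1, a classical heavy chain, was at 750, 402 and 492 CPM in IgG and at 193, 31.8 and 128 CPM in ΔNK tumors (log2 difference -2.22, SE 0.56, DESeq2 adjusted p = 0.000935). B2m, the shared light chain, was at 2078, 1399 and 1991 against 881, 254 and 664 CPM. The nonclassical genes H2-Q6 and H2-Q7 differed by -3.10 (SE 0.62) and -2.79 (SE 0.63), although their near-identical sequences make the single counts uncertain. Tap1, the peptide transporter, was at 246, 134 and 167 against 81.7, 6.79 and 72.4 CPM (DESeq2 adjusted p = 0.126), and Psmb8, an immunoproteasome subunit, at 70.9, 32.2 and 41.0 against 13.6, 2.43 and 12.3 CPM. The 3 members above 0 were the general chaperones of the endoplasmic reticulum Pdia3, Calr and Canx, at 0.31, 0.28 and 0.38.

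MHC class II genes had the lowest median of the presentation lists, -2.26, with 11 of 13 lower at an unadjusted p of at most 0.05 and 8 called lower by DESeq2. H2-Aa, an alpha chain, was at 231, 121 and 139 CPM in IgG and at 48.7, 5.28 and 17.4 CPM in ΔNK tumors. Cd74, the invariant chain, was at 663, 365 and 399 against 154, 14.1 and 59.7 CPM (log2 difference -2.65, SE 0.69, DESeq2 adjusted p = 0.00408). Neither gene overlapped, and the ΔNK tumors spread more widely than the IgG tumors. Ciita, the class II transactivator, differed by -1.67 (SE 0.71, edgeR adjusted p = 0.314, DESeq2 adjusted p = 0.198). Pan-leukocyte and dendritic cell genes were lower in the same tumors, and their part in the levels of the MHC lists was not tested.

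Endothelial genes differed by less than pan-leukocyte genes. The median of 20 endothelial genes was -0.35, with 3 lower and 2 higher at an unadjusted p of at most 0.05. Over all genes, 9.56% were lower and 5.39% higher at that p. Without overlap, 8 of the 20 were lower and 1 was higher, where 14% and 17.2% of all genes were. Pecam1, the gene of CD31, was at 32.1, 36.9 and 35.4 CPM in IgG and at 27.3, 29.3 and 32.6 CPM in ΔNK tumors. Vwf, von Willebrand factor, was at 63.3, 69.4 and 52.9 against 34.8, 23.2 and 26.1 CPM (log2 difference -1.14, SE 0.24, DESeq2 adjusted p = 0.000658), and was the only endothelial gene called by DESeq2. Plvap, a protein of fenestrated vessels without a blood-brain barrier, was at 11, 8.61 and 6.21 against 14.6, 16.1 and 18.9 CPM (0.94, SE 0.40, edgeR adjusted p = 0.314). The adhesion receptors for entering lymphocytes Vcam1 and Icam1 were at 22.2, 23.5 and 24.2 against 5.60, 1.76 and 13.3 CPM and at 20.3, 13.3 and 15.8 against 8.52, 2.24 and 8.09 CPM. Both were separate between the groups, and DESeq2 called Icam1 but not Vcam1 (adjusted p = 0.0179 and 0.0678). They were the only 2 of 8 entry receptors at an unadjusted p of at most 0.05, and the median of the 8 was -0.95 (-0.53 without ΔNK tumor 2). Pericyte and smooth muscle genes had a median of 0.04, with no gene at that p.

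Matrix genes split. Fibrillar collagens were high in IgG tumor 1: Col1a1 was at 150, 33.8 and 7.23 CPM in IgG and at 4.55, 5.46 and 8.40 CPM in ΔNK tumors, and Col3a1 at 169, 14 and 15.9 against 21.6, 18.9 and 17.6 CPM. Both overlapped. Col1a1 differed by -3.37 (SE 0.94, edgeR adjusted p = 0.181, DESeq2 adjusted p = 0.0111), and IgG tumor 2 also lay above every ΔNK tumor. The log2 difference of Col3a1 was -1.77 with IgG tumor 1 and 0.33 without it. Fn1, fibronectin, was at 850, 360 and 398 against 348, 205 and 291 CPM, and Thbs2, an antiangiogenic thrombospondin, at 8.46, 6.80 and 5.09 against 1.68, 1.64 and 1.98 CPM.

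Single matrix genes lay on the other side: 2 of 28 collagens were higher and 6 lower at an unadjusted p of at most 0.05, and 4 of 29 hyaluronan and proteoglycan genes were higher and 1 lower. Of all genes tested, 5.39% were higher and 9.56% lower at that p, so the count of higher collagens was near that share. Col9a1 was at 76.7, 47.1 and 62.1 CPM in IgG and at 229, 186 and 193 CPM in ΔNK tumors (log2 difference 1.71, SE 0.46, edgeR adjusted p = 0.173, DESeq2 adjusted p = 0.02). Col11a2 was at 42.6, 16.7 and 17.7 against 71.2, 69.3 and 52.5 CPM, and Hapln1, which links hyaluronan to proteoglycans, at 213, 147 and 147 against 476, 375 and 360 CPM. Col9a1, Col11a2 and Hapln1 did not overlap, DESeq2 called all 3, and their differences with the neuron covariate kept the sign (1.16 for Col9a1 and 0.96 for Hapln1). Sdc3, a syndecan of neural tissue, was lower, at 153, 205 and 180 against 103, 91.2 and 127 CPM. The medians were -0.10 for 28 collagens, -0.54 for 29 hyaluronan and proteoglycan genes (-0.15 with the neuron covariate) and -0.02 for 29 basement membrane and remodelling genes (-0.25 with it). Col4a1, a basement membrane collagen, overlapped between the groups (0.22, SE 0.19).

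Melanocyte genes, which mark the tumor cells, were high and alike. The summed level of the 20 genes was 28302, 24778 and 27813 CPM in IgG and 31552, 26741 and 29467 CPM in ΔNK tumors, and the median log2 difference was -0.06 with 1 gene, Kit, at an unadjusted p of at most 0.05. Tyr, tyrosinase, was at 457, 735 and 729 against 582, 696 and 641 CPM, and Pmel, a protein of the melanosome, at 3353, 2651 and 3285 against 3344, 2722 and 3282 CPM. Mitf, the master regulator, and Mlana, the gene of Melan-A, differed by -0.05 (SE 0.21) and -0.09 (SE 0.24). Tyrp1 and Dct, enzymes of pigment synthesis, differed by 0.26 (SE 0.28) and 0.33 (SE 0.28) and were higher in each ΔNK tumor than in any IgG tumor. Kit, a receptor of melanocytes and mast cells, was at 6.79, 8.55 and 9.005 against 2.96, 3.70 and 4.54 CPM.

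Genes of the dedifferentiated melanoma state had a median of -0.36 (-0.17 with the neuron covariate). Axl, a receptor kinase that dedifferentiated melanoma cells share with macrophages and dendritic cells, was at 104, 74.9 and 88.0 CPM in IgG and at 28.8, 11.3 and 36.4 CPM in ΔNK tumors (log2 difference -1.80, SE 0.38, DESeq2 adjusted p = 7.01e-05). Cell cycle genes had a median of 0.35, and 18 of 28 were higher in all ΔNK tumors than in any IgG tumor, where 17.2% of all genes were. None of the 28 had an unadjusted p of at most 0.05, DESeq2 called none, and with the neuron covariate the median was 0.07. Cdc20 was at 110, 91.8 and 100 against 153, 140 and 143 CPM and Mki67 at 485, 432 and 497 against 470, 687 and 553 CPM.

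The list with the highest median was sterol synthesis and uptake, at 0.64. All 24 genes were tested, all differences were above 0, 18 were higher at an unadjusted p of at most 0.05, 20 did not overlap, and 9 were called higher by DESeq2. Insig1, which holds the sterol sensor SCAP in the endoplasmic reticulum and is itself a target of SREBP2, was at 184, 179 and 170 CPM in IgG and at 361, 379 and 370 CPM in ΔNK tumors (log2 difference 1.06, SE 0.36, edgeR adjusted p = 0.25, DESeq2 adjusted p = 0.0461). Nsdhl, an enzyme that removes methyl groups from sterols, was at 56.3, 54.2 and 55.8 against 112, 113 and 105 CPM. Sc5d, a late desaturase, was at 68.9, 73.3 and 65.7 against 117, 123 and 114 CPM (0.77, SE 0.17, DESeq2 adjusted p = 0.000911).

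In the CD8L tumors Insig1 was at 351, 360 and 128 CPM, close to the ΔNK level in tumors 1 and 2 and below the IgG level in tumor 3. The SE of each difference is estimated over all 12 tumors and includes this spread. With the neuron covariate the median of the sterol list was 0.45, with 12 genes at an unadjusted p of at most 0.05, and without ΔNK tumor 2 it was 0.67 with 13. The sterol response element SRE-1 (ATCAC, any base and CCAC, both strands) was searched after the values were seen. It matched in 0 of the 16 sterol genes with a promoter window and in 0.234% of all windows. A pattern this rare would seldom match among 16 genes, so the count of 0 cannot tell whether these promoters hold sterol response elements.

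Fatty acid synthesis genes lay on the same side, with a median of 0.51, 9 of 15 higher at an unadjusted p of at most 0.05 and 6 called higher by DESeq2. Scd1, a desaturase that makes oleate, was at 251, 260 and 257 CPM in IgG and at 448, 554 and 555 CPM in ΔNK tumors (log2 difference 1.02, SE 0.25, DESeq2 adjusted p = 0.00252). Fads2, a desaturase of polyunsaturated fatty acids, was at 112, 112 and 123 against 183, 186 and 201 CPM. No ΔNK tumor overlapped an IgG tumor in either gene.

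**Figure D4:**
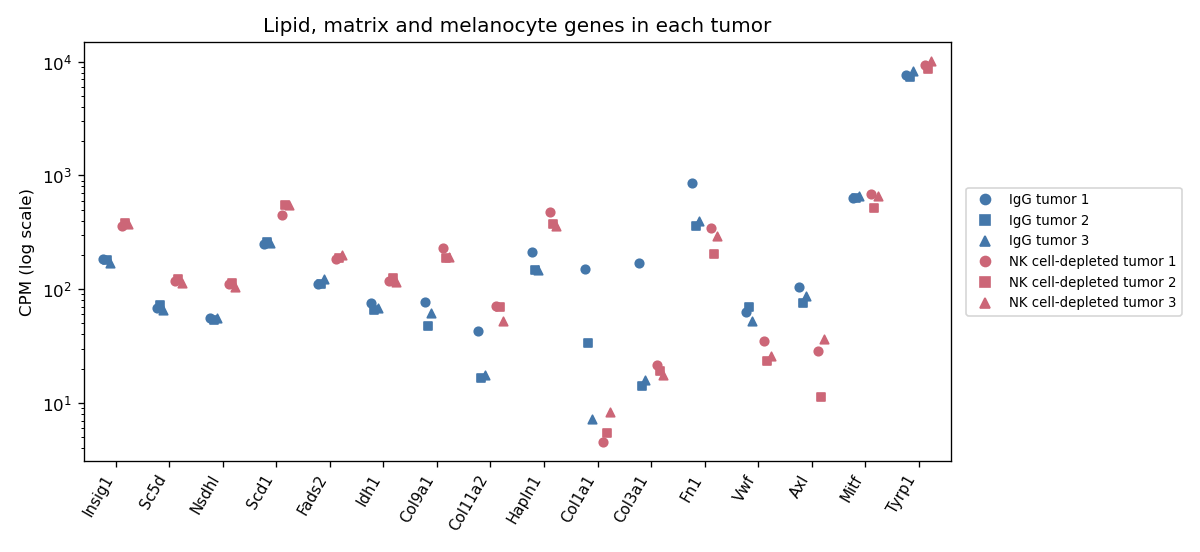
CPM on a log scale of 16 lipid, matrix and melanocyte genes in the 3 IgG (blue) and 3 ΔNK tumors (red), the marker shape giving the tumor number. The lipid genes are tightly grouped and higher in ΔNK tumors (Scd1 448 to 555 against 251 to 260 CPM), Col1a1 and Col3a1 are highest in IgG tumor 1, and Mitf overlaps.

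The higher genes with the smallest p among those at that level and without overlap belonged to several processes. Padi2, an enzyme that turns arginine into citrulline, was at 149, 174 and 204 CPM in IgG and at 301, 289 and 383 CPM in ΔNK tumors (log2 difference 0.88, SE 0.15, DESeq2 adjusted p = 1.91e-05). Cyp39a1, an oxysterol hydroxylase, was at 29.6, 28.4 and 30.9 against 53.4, 54.9 and 57.9 CPM. Mt1, a metallothionein, was at 252, 279 and 312 against 479, 518 and 541 CPM, and Idh1, the cytosolic isocitrate dehydrogenase that makes NADPH, at 75.3, 66.1 and 68.5 against 119, 125 and 115 CPM. Lack of overlap was a condition of this choice, so the separation of the groups in these 4 genes is no result. The others were Afap1l2, Tmem184c, Fam92a, Hmgn3, Sc5d, Cab39l, Sspn, Mmgt1, Usmg5, Lin7c and Acadm, and edgeR adjusted p-values of the 15 ran from 0.112 to 0.15.

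Genes of oxidative metabolism shared small positive differences. All 42 nuclear genes of the respiratory chain were above 0 (median 0.33, 7 at an unadjusted p of at most 0.05, 29 without overlap, none called by DESeq2). So were all 25 of the citrate cycle and pyruvate dehydrogenase list (0.31, 7, 21 and 1) and all 40 cytosolic ribosomal protein genes (0.27, 0, 9 and 0). The 1 gene called by DESeq2 was Idh1, a cytosolic enzyme of that list. With the neuron covariate these medians were 0.14, 0.19 and 0.01. Of all genes tested, 5.39% were higher at that p and 17.2% were higher without overlap. The ribosomal counts, 0 and 9 of 40, lay below and near these shares. The 13 mitochondrially encoded genes had a median of 0.04. Glycolysis (0.12), hypoxia targets (0.00) and the unfolded protein and integrated stress response (0.13) were near 0. Ndrg1, a hypoxia-responsive gene, was at 72.3, 80.6 and 115 against 130, 135 and 176 CPM, and Slc7a11, the cystine transporter, at 17.9, 27.3 and 25.3 against 8.74, 7.83 and 13.7 CPM. Egr1, an immediate early gene, differed by -1.67 (SE 0.53).

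Genes of brain cells were measured beside all of these. Neuron, astrocyte and oligodendrocyte genes had medians of -1.98, -1.34 and -1.26, and no neuron gene separated the groups. With the neuron covariate these medians were 0.02, -0.32 and 0.14. The covariate is the mean of these same neuron genes, so their own median near 0 follows from the adjustment and is no result. Snap25, a synaptic protein, was at 59.8, 314 and 156 CPM in IgG and at 19.6, 32.7 and 91.1 CPM in ΔNK tumors, Gfap of astrocytes at 99.4, 440 and 456 against 79.5, 88.1 and 240 CPM, and Mbp of oligodendrocytes at 471, 646 and 496 against 558, 281 and 405 CPM. IgG tumors 2 and 3 were high in the first 2 of these. S100b, a marker of astrocytes that melanoma cells also make, was higher, at 135, 133 and 163 against 242, 190 and 193 CPM. With the neuron level as a covariate, edgeR called 0 genes. The differences of Scin (-4.51), Klra7 (-6.39) and Klra8 (-5.79) were no smaller than without it. Medians of T cell (-2.33), MHC class I (-1.67) and MHC class II genes (-2.31) lay no nearer to 0. Other immune lists moved nearer to 0, among them dendritic cell (-2.09 to -1.88), regulatory T cell (-1.16 to -0.95) and chemokine genes (-0.91 to -0.75). The part of brain content in these differences was not tested.

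**Figure D5:**
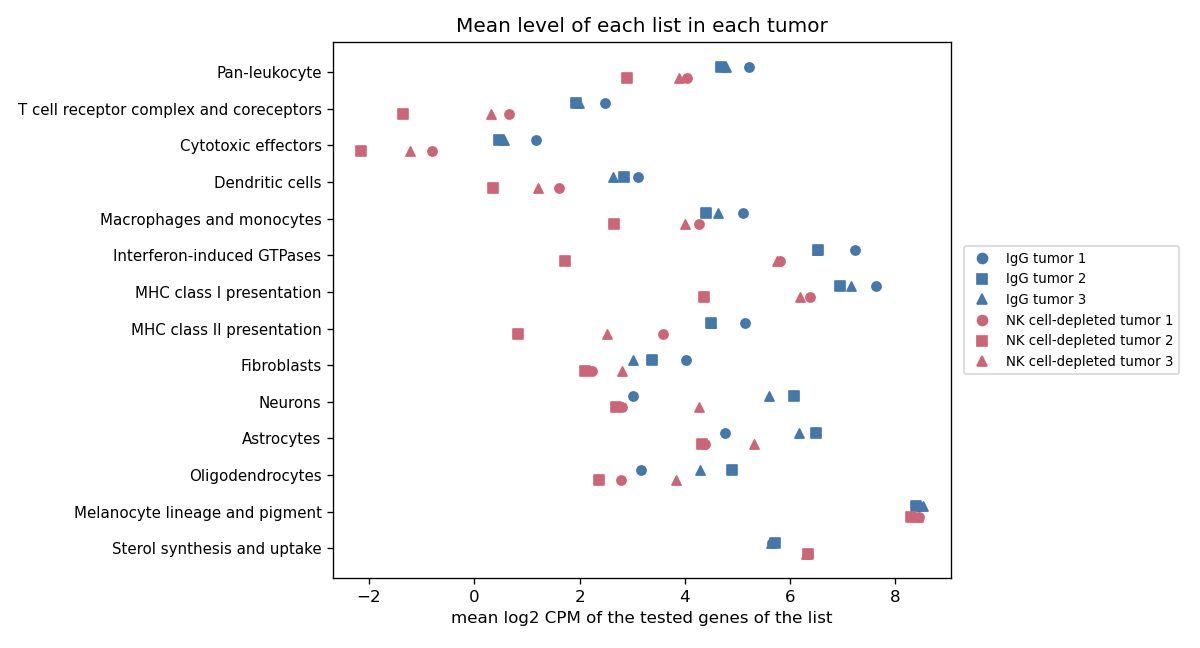
Mean log2 CPM of the tested genes of 14 lists in the 3 IgG (blue) and 3 ΔNK tumors (red), the marker shape giving the tumor number. ΔNK tumor 2 is lowest in the leukocyte, interferon and MHC lists (1.72 for interferon-induced GTPases), IgG tumors 2 and 3 are highest in neuron genes (6.07 and 5.61), and the melanocyte list is alike in all 6 tumors.

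To set the ΔNK tumors against tumors that received the same blockade, the same fit was read for CD8L and CD8H tumors. These comparisons share the ΔNK tumors with the one above. Against CD8L tumors edgeR called 0 genes (0%), 1052 had an unadjusted p of at most 0.05 (6.07%, and 5.33% on the lower side), and DESeq2 called 158, of which 149 were lower in ΔNK tumors. The medians of the lists, ΔNK minus CD8L, were -1.94 for T cell, -2.75 for cytotoxic, -1.23 for dendritic cell, -1.87 for interferon-induced GTPase, -1.36 for MHC class I, -1.79 for MHC class II and 0.30 for sterol genes. Against CD8H tumors edgeR called 2531 genes higher (14.6%) and 2719 lower (15.7%), and 46.4% lay at or below an unadjusted p of 0.05. There the medians of the same lists were -4.85, -6.10, -2.98, -3.39, -2.87, -4.04 and 1.39, and edgeR called all 23 T cell genes, 10 of 12 cytotoxic genes and all 18 GTPases lower and 21 of 24 sterol genes higher. The study chose CD8H tumors by their CD8+ T cells, so the T cell genes were part of that choice.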

How the data were processed

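According to the submitters' processing notes, alignment was to GRCm38.p6 by STAR 2.6.1d, with StringTie 1.3.3b. The authors deposited counts per gene made with featureCounts 1.5.0-p3, and list DESeq2 1.26.0. They also deposited FPKM, that is counts scaled to library size and divided by a gene length. For the strand setting and the annotation release, nothing is given in the sources used here, and overlapping antisense genes cannot be told apart. Total counts were 16336993 to 26416214 per tumor. No replicates agreed within sampling noise (chi-square of 15.7 to 148 per degree of freedom over the 12 pairs within groups). Columns were matched to samples by their names.

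Counts were tested with edgeR 4.0.16 (R 4.3.3): filterByExpr, TMM, quasi-likelihood fit of 4 groups of 3, 8 residual degrees of freedom. Adjusted p-values run over all 17320 genes. Alternatives were DESeq2 1.42.0, limma 3.58.1 (voom, and log2(FPKM + pseudocount)), other scalings, filters, covariate, replicate block and leaving out each library. The fits were tested on simulated counts. Intervals of count ratios are exact 95% binomial intervals on counts pooled over each group, and leave out the spread between tumors. Promoters and motif shares came from RefSeq (GRCm38.p6), and matching was by symbol.

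The gene lists (52) and the genes named were chosen with earlier results of these data known. Named genes are a panel, the 15 genes per direction with the smallest p or, if called, the largest change among those without overlap at a mean log2 CPM of 2 or more, and list members with small p. Mrc1, Arg1, Nectin2, Pdia3, Calr, Canx, Flt3l, Clec9a, Csf3r, Ccl7, Igtp, Isg15, Plvap and S100b were added after their values were seen or as illustrations. Some items are not reported here.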

Additional observations from a re-analysis of the deposited data

How the results depend on the processing

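Over the alternatives, the number of genes called between ΔNK and IgG tumors depended on the tool and on the samples in the fit. Against 3 by edgeR, DESeq2 called 922 (205 higher, 717 lower), limma voom with sample quality weights 1374 (649 higher, 725 lower), the 6 libraries alone 28 (23 higher, 5 lower), no filter beyond 1 count 12 and limma on log2(FPKM + 0.1) 25, and total counts only, the neuron covariate and limma on log2(FPKM + 1) 0 each. RLE, upper quartile and the stricter filter gave 3. Leaving out 1 library gave 0 to 5, with 0 for each of the 6 compared tumors, CD8L tumor 1 and the CD8H tumors, and 5 without CD8L tumor 3. Against CD8L tumors DESeq2 called 158 and against CD8H tumors leaving out 1 library gave 3412 to 6387, the lowest without ΔNK tumor 1. The cause of these differences was not tested.

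With the replicate number as a block, 34 genes were called, all lower, 0 against CD8L and 6778 against CD8H. Deviations of same-numbered IgG and ΔNK tumors correlated at 0.30, 0.05 and 0.14, not all above 0.1, so the numbers were not taken to pair these tumors. Those of same-numbered ΔNK and CD8L tumors correlated at 0.59, 0.48 and 0.54, and in that comparison 0 genes were called with the block and without it.

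Of the named genes, Cxcr3, Col3a1, Mitf, Tyr and Pmel changed sign when 1 library was left out. Cxcr3 ranged from -0.50 to 0.25 (above 0 without IgG tumor 1, and at 0.18 without ΔNK tumor 3), Col3a1 from -2.24 to 0.33 (without IgG tumor 1) and Mitf from -0.16 to 0.021 (without ΔNK tumor 2). Tyr (-0.0012) ranged from -0.24 to 0.11 and was 0.012 with the replicate block. Pmel (0.0092) ranged from -0.093 to 0.064, and was -0.0028 by DESeq2 and by RLE, -0.042 by upper quartile, -0.075 by total counts, -0.014 and -0.013 without and with a stricter filter, -0.015 in the 6 libraries alone, -0.23 with the neuron covariate and -0.071 by limma on either FPKM scale. Mbp turned from -0.37 to 0.35 with the neuron covariate. Medians of the T cell, MHC class I, MHC class II and sterol lists kept their sign in 24 alternatives, at -2.74 to -1.31, -1.95 to -1.19, -3.67 to -1.87 and 0.45 to 0.68. Total-count scaling moved the median of all genes from 0.01 to -0.07. The called genes had 0 to 2 counts in each ΔNK tumor, so their size is known within wide counting intervals.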
